A study of Mus musculus with 43 samples.

Results

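The genes of interferon gamma and its signalling were followed in mononuclear phagocytes sorted from newborn mouse lung: the cytokine gene Ifng, the receptor chains Ifngr1 and Ifngr2, the receptor-bound kinase Jak2, the transcription factor Irf1, the feedback inhibitor Socs1, the checkpoint ligand Cd274 and the chemokines Cxcl9 and Cxcl10. They were taken by symbol, through their Ensembl identifiers, and all 9 were found among the 37991 genes of the deposited count table. C57BL/6 newborns were assigned at random to room air (normoxia) or to an inspired oxygen fraction of 0.9 (hyperoxia), the lungs were taken after 1.5 days, and the labels name no transgene or drug in either arm. Flow cytometry separated 4 populations, named as in the labels: dendritic cells (DC, MHCIIhi CD11chi), alveolar macrophages (AM, SiglecFhi CD11chi), and Ly6Chi (CD11clo) and Ly6Clo (CD11chi) monocytes/macrophages. The resulting 43 libraries form 8 groups, with 6 normoxic libraries in each population (5 in Ly6Clo) and 5 hyperoxic ones. Litters were mixed before assignment, per the series' design text. Each library still carries the number of a litter, 93, 100 or 108, and each hyperoxic group holds 2 libraries of litter 93 (replicates 1 and 2), 1 of litter 100 (replicate 3) and 2 of litter 108 (replicates 4 and 5). No label names the pup behind a library, so p-values measure the spread between libraries, and libraries of different populations, the 4 hyperoxic replicates 3 among them, may share a pup, which no fit took into account.

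Interferon gamma is made mainly by T cells and natural killer cells and is sensed by macrophages, monocytes and dendritic cells. The ligand joins the 2 chains IFNGR1 and IFNGR2, the kinases JAK1 and JAK2 bound to them are activated, and target genes with gamma-activated sequences (GAS elements) are transcribed. Irf1 is an early target whose product binds ISRE-type elements at further targets such as Cxcl9, Cxcl10 and Cd274, while SOCS1 blocks the kinases and ends the signal.

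The promoters of the inducible members are shown because these genes were high together in single hyperoxic libraries. The windows are the 250 bases before the RefSeq transcript start in mouse build GRCm38.p6, written in the direction of transcription, in lower case with matches to a GAS sequence (TTCNNNGAA) or an ISRE core (GAAA, any 2 bases, then GAAA, searched on both strands) in capitals.
Irf1 (chr11:53769764-53770013, + strand): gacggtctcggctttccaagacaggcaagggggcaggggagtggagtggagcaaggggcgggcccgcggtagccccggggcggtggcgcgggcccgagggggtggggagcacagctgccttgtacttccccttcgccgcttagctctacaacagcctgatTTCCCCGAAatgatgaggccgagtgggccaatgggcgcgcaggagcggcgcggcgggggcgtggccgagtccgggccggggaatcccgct
Socs1 (chr16:10785537-10785786, - strand): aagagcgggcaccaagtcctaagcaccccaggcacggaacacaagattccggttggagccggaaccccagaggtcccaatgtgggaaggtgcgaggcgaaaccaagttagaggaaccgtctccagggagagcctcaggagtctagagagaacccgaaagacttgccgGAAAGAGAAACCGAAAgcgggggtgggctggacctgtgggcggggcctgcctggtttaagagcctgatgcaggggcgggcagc
Cxcl10 (chr5:92348890-92349139, - strand): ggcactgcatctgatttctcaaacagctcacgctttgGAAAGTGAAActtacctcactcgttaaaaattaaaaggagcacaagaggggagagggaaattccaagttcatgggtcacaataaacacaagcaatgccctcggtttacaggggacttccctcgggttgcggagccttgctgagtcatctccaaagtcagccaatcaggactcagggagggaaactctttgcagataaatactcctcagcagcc
Cxcl9 (chr5:92328080-92328329, - strand): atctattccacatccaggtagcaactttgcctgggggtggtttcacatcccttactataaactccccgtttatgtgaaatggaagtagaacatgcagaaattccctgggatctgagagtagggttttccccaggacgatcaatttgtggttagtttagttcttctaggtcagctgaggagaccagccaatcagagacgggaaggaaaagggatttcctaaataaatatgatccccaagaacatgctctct
Cd274 (chr19:29367188-29367437, + strand): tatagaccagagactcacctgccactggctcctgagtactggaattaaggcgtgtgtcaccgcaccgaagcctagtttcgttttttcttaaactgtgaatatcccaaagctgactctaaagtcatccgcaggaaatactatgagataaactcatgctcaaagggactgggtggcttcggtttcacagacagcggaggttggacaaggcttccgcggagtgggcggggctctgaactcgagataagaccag
The Irf1 window held 1 GAS match, TTCCCCGAA, 90 to 82 bases before the start. A second RefSeq start of Irf1 had no match. The Socs1 window held 2 overlapping ISRE-core matches, GAAAGAGAAA at 83 to 74 bases and GAAACCGAAA at 77 to 68 bases before the start. The Cxcl10 window held 1, GAAAGTGAAA, at 213 to 204 bases. The windows of Cxcl9, Cd274, Ifngr1, Ifngr2 and Jak2 held neither sequence, and that of Ifng held 1 GAS match, TTCAGAGAA, at 249 to 241 bases. Of 32851 RefSeq windows of this length, 7.02% held a GAS match, 2.98% an ISRE-core match and 9.66% either. A match is a stretch of letters, not a measured binding site.

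The libraries held 551960 to 2403861 counts, and 5 of them held under 1000000 (4 of AM and 1 of Ly6Clo). Levels are given as CPM, the counts per 1000000 counts of a library, scaled between libraries by the trimmed mean of M values, and values of different genes are compared only per kilobase of exon. The sorts were checked by summed markers in normoxia. Dendritic cell genes summed to 3281 to 4374 CPM in DC and to at most 864 CPM elsewhere. Alveolar macrophage genes summed to 1826 to 2285 CPM in AM, with up to 1560 CPM in Ly6Clo. Classical monocyte genes summed to 2755 to 3974 CPM in Ly6Chi and to at most 1531 CPM elsewhere. The list of non-classical monocyte and interstitial macrophage genes gave 880 to 2113 CPM in Ly6Clo and 1280 to 1862 CPM in DC, so it did not set Ly6Clo apart from DC. Genes on the lists of other cell types had counts as well in normoxia. Epithelial genes summed to 319 to 2132 CPM in AM and the neutrophil list to 1026 to 2300 CPM in Ly6Chi. The neutrophil list includes S100a8 and S100a9, and its sum was not split by gene, so it does not measure neutrophils in that sort. B cell genes summed to 262 to 765 CPM in DC. Some sums differed between the arms, with ranges that overlapped. Classical monocyte genes in Ly6Clo summed to 282 to 1277 CPM in hyperoxia (median 774.5) and 965 to 1076 CPM in normoxia (median 1012). Epithelial genes in Ly6Chi summed to 20.3 to 1536 CPM in hyperoxia (median 94.1) and 57.9 to 1534 CPM in normoxia (median 917). The part of other cells in the member levels was not tested.

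Ifng itself was close to undetected. Over the 43 libraries it had 39 counts, in 9 libraries, where a count of 0 allows 1.22 to 5.59 CPM depending on depth (3 counts of the total, counting error only). No AM or Ly6Clo library and no normoxic Ly6Chi library held a count. Normoxic DC held 3 counts in 3 of 6 libraries and hyperoxic DC held 8 counts in 4 of 5, of which 5 were in replicate 4. Hyperoxic Ly6Chi held 28, of which 24 lay in replicate 3 of litter 100 (24.8 CPM) and 4 in replicate 5. Ifng passed the filter on low counts in no comparison and was therefore not tested.

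The library with 24 Ifng counts also stood apart from the other Ly6Chi libraries in lymphocyte markers. The 18 T and natural killer cell genes summed to 787 CPM there, against 24.1 to 169 CPM in the other 4 hyperoxic Ly6Chi libraries and 12.7 to 191 CPM in normoxic Ly6Chi. In that library Nkg7, a cytotoxic granule gene, was at 226 CPM, Gzma, which encodes granzyme A, at 228 CPM, and Ncr1, a natural killer cell receptor, at 10.3 CPM, while the T cell gene Cd3e was at 1.03 CPM. Hyperoxic Ly6Chi replicate 5, with 4 Ifng counts, summed to 169 CPM, with Nkg7 at 47.9 CPM and Gzma at 0 CPM. In other populations, normoxic Ly6Clo replicate 2 summed to 963 CPM and normoxic DC replicate 2 to 608 CPM, both with 0 Ifng counts. Their make-up differed, with Cd3e at 58.9 and 31.05 CPM, Nkg7 at 3.89 and 0 CPM, and Gzma at 7.23 and 0 CPM. Normoxic Ly6Clo replicate 4 had Gzma at 92.8 CPM and Nkg7 at 51.8 CPM, also with 0 Ifng counts. Hyperoxic DC replicate 4 held 5 Ifng counts at a sum of 250 CPM. The part of the T and natural killer cell genes in the Ifng value was not tested. In a sorted bulk library, fewer cells of a type and less RNA per cell cannot be told apart, and the same holds for more.

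The ligand-binding chain Ifngr1 was the most abundant member per kilobase in every normoxic population. In normoxic DC it ranged from 789 to 899 CPM (median 855), in Ly6Chi from 732 to 1059 CPM (median 818), and in AM from 184 to 325 CPM (median 260). The 5 normoxic Ly6Clo libraries held 609, 599, 669, 808 and 856 CPM. Every AM library lay below every library of the other populations. The order of means was DC (847 ± 42.0 CPM, SD, n = 6), Ly6Chi (841 ± 119, n = 6), Ly6Clo (708 ± 118, n = 5) and AM (254 ± 48.8, n = 6). By edgeR's quasi-likelihood test with litter in the model, adjusted over 11979 genes, DC exceeded AM 3.31-fold (log2 difference 1.73 ± 0.11, SE; adjusted p = 2.89e-12). AM was 3.32-fold below Ly6Chi (adjusted p = 1.98e-12) and 2.83-fold below Ly6Clo (adjusted p = 6.05e-10). The differences between the neighbours DC and Ly6Chi (log2 difference -0.006 ± 0.11, adjusted p = 0.977) and Ly6Chi and Ly6Clo (0.23 ± 0.11, adjusted p = 0.127) did not pass the threshold.

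The signalling chain Ifngr2 had another order, with Ly6Chi first. In normoxia it ranged from 297 to 381 CPM in Ly6Chi (median 313), from 210 to 289 CPM in DC (median 216) and from 117 to 181 CPM in AM (median 137). The Ly6Clo libraries held 205, 189, 216, 220 and 239 CPM. Ly6Chi libraries all lay above those of the other 3 populations, and AM libraries all lay below. Ly6Chi exceeded Ly6Clo 1.50-fold (log2 difference 0.58 ± 0.12, adjusted p = 0.000308) and DC was 1.41-fold below Ly6Chi (adjusted p = 0.00093). DC and Ly6Clo differed by 0.09 ± 0.12 on the log2 scale (adjusted p = 0.625). AM was below all 3, by 0.72 ± 0.11 against DC, 1.21 ± 0.11 against Ly6Chi and 0.62 ± 0.12 against Ly6Clo on the log2 scale (adjusted p = 8.05e-06, 1.26e-09 and 0.000359). Per kilobase, the ratio of Ifngr1 to Ifngr2 was therefore not constant: 4.84 ± 0.55 in DC, 4.37 ± 0.41 in Ly6Clo, 3.43 ± 0.17 in Ly6Chi and 2.399 ± 0.34 in AM (mean ± SD over normoxic libraries).

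The kinase gene Jak2 was highest in DC. Normoxic DC ranged from 247 to 327 CPM (median 314), Ly6Chi from 78.2 to 148 CPM (median 127) and AM from 46.0 to 92.0 CPM (median 80.9). Ly6Clo held 102, 67.8, 122, 131 and 67.3 CPM. DC libraries all lay above the rest, while the other 3 populations overlapped. DC exceeded AM 3.95-fold, Ly6Clo 3.10-fold and Ly6Chi 2.50-fold (log2 differences 1.98 ± 0.18, 1.63 ± 0.18 and 1.32 ± 0.17; adjusted p = 8.73e-10, 2e-07 and 8.21e-07). AM was below Ly6Chi (-0.66 ± 0.18, adjusted p = 0.00252). The differences of Ly6Clo from Ly6Chi (adjusted p = 0.199) and from AM (adjusted p = 0.191) did not pass the threshold.

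Irf1, the interferon-induced transcription factor, was highest in Ly6Chi and DC. In normoxia it ranged from 195 to 306 CPM in Ly6Chi (median 270), from 176 to 269 CPM in DC (median 241) and from 22.2 to 92.6 CPM in AM (median 56.5). Ly6Clo held 115, 147, 112, 179 and 160 CPM. AM libraries all lay below the others, and Ly6Chi and DC overlapped. AM was 4.56-fold below Ly6Chi, 4.10-fold below DC and 2.62-fold below Ly6Clo (adjusted p = 3.64e-10, 1.88e-09 and 1.05e-05). Ly6Clo was below Ly6Chi (log2 difference of Ly6Chi minus Ly6Clo 0.80 ± 0.19, adjusted p = 0.00166) and below DC (DC minus Ly6Clo 0.65 ± 0.19, adjusted p = 0.0111). DC and Ly6Chi differed by -0.15 ± 0.17 (adjusted p = 0.553). The call against DC was lost without litter 93 (0.47, adjusted p = 0.198) and without litter 108 (0.63, adjusted p = 0.0833), and that against Ly6Chi without litter 93 (0.57, adjusted p = 0.0876).

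The feedback inhibitor Socs1 was low everywhere. In normoxia it ranged from 8.09 to 17.98 CPM in DC (median 12.7), from 4.84 to 14.5 CPM in Ly6Chi (median 10.2) and from 0.849 to 4.59 CPM in AM (median 2.13). Ly6Clo held 3.69, 12.2, 4.96, 2.88 and 3.49 CPM. AM libraries all lay below those of DC and Ly6Chi. DC exceeded AM 5.02-fold (2.33 ± 0.44, adjusted p = 0.000104) and AM was 4.08-fold below Ly6Chi (adjusted p = 0.000438). DC exceeded Ly6Clo 2.35-fold (1.23 ± 0.43, adjusted p = 0.035), a call that was lost when any 1 litter was left out (adjusted p = 0.102 to 0.155) and under 8 of 23 left-out libraries (adjusted p up to 0.109).

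Cd274 encodes PD-L1, the ligand that restrains T cells through PD-1, and its order differed from that of the receptor, with Ly6Clo and AM first. The normoxic Ly6Clo libraries held 212, 169, 202, 276 and 242 CPM. AM ranged from 132 to 184 CPM (median 158), DC from 55.0 to 128 CPM (median 87.4) and Ly6Chi from 15.3 to 48.5 CPM (median 29.0). DC libraries all lay above Ly6Chi and below AM and Ly6Clo. Ly6Chi was 6.80-fold below Ly6Clo (log2 difference -2.77 ± 0.23, adjusted p = 1.27e-09), AM exceeded Ly6Chi 4.81-fold (adjusted p = 5.42e-09) and DC exceeded Ly6Chi 2.79-fold (adjusted p = 1.17e-05). DC was 1.72-fold below AM (adjusted p = 0.00317) and 2.44-fold below Ly6Clo (adjusted p = 7e-05). The difference of AM minus Ly6Clo did not pass the threshold (-0.50 ± 0.22, unadjusted p = 0.0295, adjusted p = 0.101).

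Cxcl9 and Cxcl10, ligands of the T cell chemokine receptor CXCR3, were low and scattered in room air. Cxcl10 ranged from 8.09 to 74.1 CPM in normoxic DC (median 9.07), from 1.31 to 31.5 CPM in Ly6Chi (median 11.5) and from 0 to 58.7 CPM in AM (median 3.34). Ly6Clo held 6.76, 65.0, 19, 0 and 0 CPM. All populations overlapped, and in none of the 6 normoxic pairs was Cxcl10 called (adjusted p = 0.513 to 0.968). Cxcl9 had 20 counts in normoxic DC, 49 in AM, 19 in Ly6Chi and 5 in Ly6Clo, and 26.5 CPM in replicate 1 of AM was its highest normoxic value. It was not tested between normoxic populations.

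Of the 7 members tested, 6 were called between DC and AM (49.9% of all genes tested were called), 3 between DC and Ly6Chi (28.7%), 4 between DC and Ly6Clo (24.4%), 6 between AM and Ly6Chi (52.2%), 3 between AM and Ly6Clo (21.5%) and 3 between Ly6Chi and Ly6Clo (30.7%). The libraries of a pair did not overlap for 6 members between DC and AM (22.7% of all genes tested), 3 between DC and Ly6Chi (14.5%), 2 between DC and Ly6Clo (14.5%), 5 between AM and Ly6Chi (25.2%), 3 between AM and Ly6Clo (9.94%) and 3 between Ly6Chi and Ly6Clo (15.7%). Nothing particular to the members is read from these counts.

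**Figure D1:**
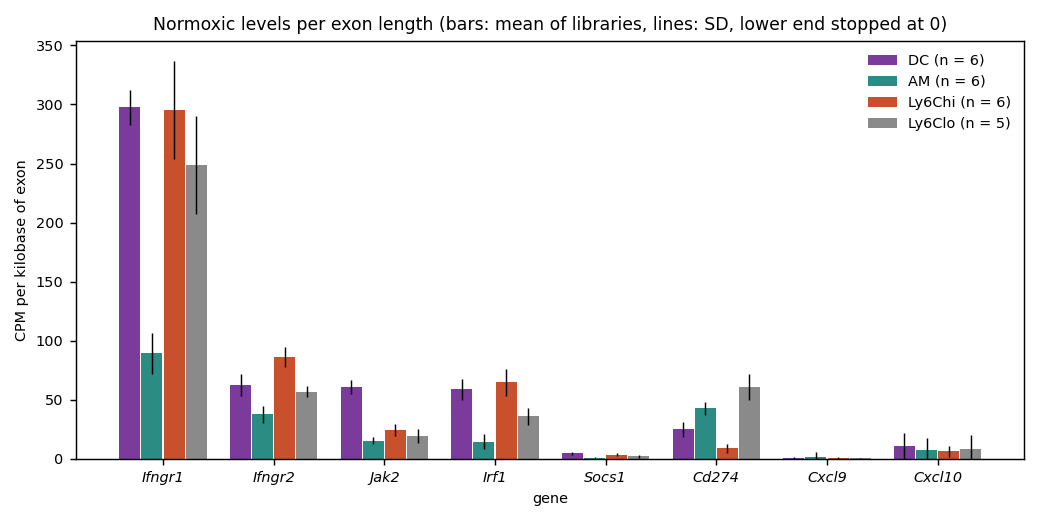
Mean level of each member but Ifng in CPM per kilobase of exon (vertical axis) in the 4 normoxic populations (colours); lines are the SD over libraries. Ifngr1 is the tallest bar in each population, at 298 in DC, 296 in Ly6Chi, 249 in Ly6Clo and 89.0 in AM, and Cd274 is higher in Ly6Clo (60.7) and AM (42.6) than in DC (24.9) and Ly6Chi (8.84).

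Hyperoxia against normoxia, fitted within each population with litter in the model, is the comparison the groups were made for. No member was called by edgeR's quasi-likelihood test in DC (0 of 7 tested, against 0% of all genes tested), AM (0 of 5, against 0.110%), Ly6Chi (0 of 7, against 0%) or Ly6Clo (0 of 6, against 0%). At an unadjusted p under 0.05 there were 2 of 7 members in DC (8.85% of all genes), 2 of 5 in AM (9.91%), 3 of 7 in Ly6Chi (5.45%) and 2 of 6 in Ly6Clo (5.30%). The hyperoxic and normoxic libraries did not overlap for 1 member in AM, Cd274 (0.861% of all genes tested), and for 0 in DC (0.355%), Ly6Chi (0.184%) and Ly6Clo (0.667%). DESeq2 called 1 member, Cd274 in AM, and limma voom called none, and nothing particular to the members is read from these counts. The edgeR counts depended on the filter on low counts. Without it, edgeR called 369 of 21297 genes in DC, 325 of 19708 in AM, 235 of 20482 in Ly6Chi and 173 of 20149 in Ly6Clo. Among them were Irf1 in all 4 populations, Cd274 in all but DC, Cxcl10 in all but AM, Cxcl9 in DC and Ly6Clo, Socs1 and Jak2 in DC, and Ifng in Ly6Chi. The differences hardly moved but their errors shrank, as for Cxcl10 in DC (1.81 with SE 0.21, against SE 1.03 with the filter), although 1 library held most of that signal. For Irf1 in DC the SE was 0.114 without the filter and 0.215 with it. For members tested both ways, the calls thus came with smaller errors at nearly the same differences. They are not read as changes with oxygen.

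**Figure D2:**
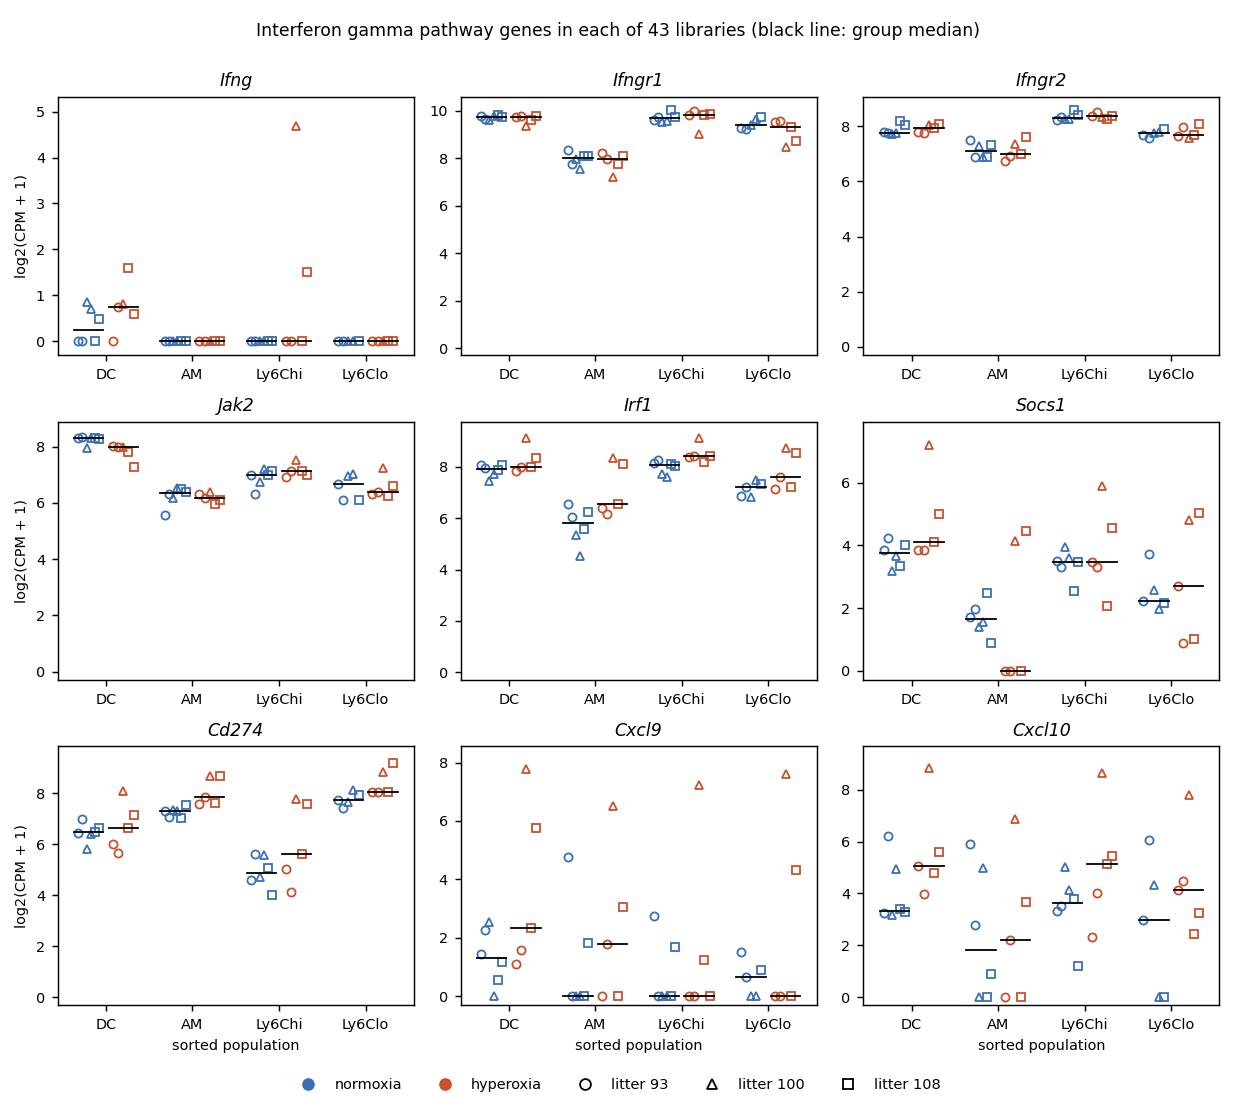
Level of each member in every library, as log2(CPM + 1) on the vertical axis, by population (horizontal axis), oxygen (colour) and litter (symbol); black lines are group medians. The hyperoxic triangle of litter 100 is the highest point of its population for Irf1, Cxcl9 and Cxcl10 in all 4 populations and the lowest for Ifngr1.

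The receptor chains and the kinase had small fitted differences. Hyperoxic Ifngr1 was 862, 870, 656, 777 and 876 CPM in DC (replicates 1 to 5), 294, 252, 145, 216 and 271 CPM in AM, 914, 1018, 524, 909 and 915 CPM in Ly6Chi, and 727, 768, 355, 627 and 424 CPM in Ly6Clo. Replicate 3 was the lowest library of its population, normoxic ones included, in all 4 populations. Replicate 4 of DC and replicate 5 of Ly6Clo also lay under the normoxic range, and the others lay within it. The fitted log2 differences were -0.08 ± 0.09 in DC, -0.17 ± 0.15 in AM, -0.06 ± 0.11 in Ly6Chi and -0.34 ± 0.22 in Ly6Clo (adjusted p = 0.753 to 0.910), and without replicate 3 they were -0.01, -0.06, 0.06 and -0.10.

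Ifngr2, from the same libraries, was 221, 217, 260, 241 and 267 CPM in hyperoxic DC, 106, 121, 162, 126 and 196 CPM in AM, 332, 368, 322, 309 and 330 CPM in Ly6Chi, and 197, 249, 189, 206 and 270 CPM in Ly6Clo. Its replicate 3 did not stand apart as it did for Ifngr1: it was lowest of its population only in Ly6Clo and within the range in the other 3. The fitted differences were 0.02 to 0.05 with SE 0.09 to 0.18 on the log2 scale (adjusted p = 0.895 to 0.985), and their sign changed without replicate 3 in DC, AM and Ly6Chi.

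Jak2 was 262, 252, 256, 226 and 155 CPM in hyperoxic DC, against 247 to 327 CPM in normoxia. Of the hyperoxic libraries, 2 lay below all normoxic ones, and the other 3 lay above the lowest normoxic library and below the remaining 5. The log2 difference was -0.41 ± 0.12 (unadjusted p = 0.00475, adjusted p = 0.445), and it was -0.32, -0.12 and -0.74 within litters 93, 100 and 108. In the other populations Jak2 differed by -0.07 ± 0.20 (AM), 0.25 ± 0.17 (Ly6Chi) and 0.16 ± 0.19 (Ly6Clo), with adjusted p = 0.761 to 0.940.

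Irf1 had positive differences in all 4 populations, none past the threshold. It was 231, 256, 563, 255 and 329 CPM in hyperoxic DC, 83.7, 70.7, 324, 93.9 and 278 CPM in AM, 331, 346, 550, 293 and 340 CPM in Ly6Chi, and 138, 192, 428, 148 and 367 CPM in Ly6Clo. Replicate 3 was the highest library of each population and replicate 5 was high in AM and Ly6Clo, while replicates 1 and 2 lay within the normoxic range in DC and AM. The log2 differences were 0.48 ± 0.22 in DC, 1.49 ± 0.54 in AM, 0.53 ± 0.18 in Ly6Chi and 0.81 ± 0.28 in Ly6Clo (adjusted p = 0.564, 0.387, 0.758 and 0.860). Without replicate 3 they were 0.08, 0.82, 0.18 and 0.47.

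Socs1 was 13.5, 13.4, 146, 16.3 and 31.2 CPM in hyperoxic DC and 10.1, 8.89, 59.0, 3.21 and 22.6 CPM in Ly6Chi. In AM it was 0, 0, 16.8, 0 and 20.8 CPM, and in Ly6Clo 5.53, 0.827, 26.9, 0.993 and 31.6 CPM. Replicates 3 and 5 were the 2 highest hyperoxic libraries in each population, and the others lay in or below the normoxic range. The log2 difference was 1.40 ± 0.58 in DC (adjusted p = 0.546) and 0.88 ± 0.49 in Ly6Chi (adjusted p = 0.758). Without replicate 3 it was 0.40 and 0.33. Socs1 had too few counts to be tested in AM and Ly6Clo.

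Cd274 came nearest to a call, in AM. The 5 hyperoxic AM libraries held 190, 229, 414, 196 and 404 CPM and the 6 normoxic ones 132 to 184 CPM (median 158), so the groups did not overlap. The log2 difference was 0.90 ± 0.18, or 1.87-fold, with an adjusted p of 0.0887 by edgeR's quasi-likelihood test. It was positive within each litter, at 0.53 in litter 93, 1.37 in litter 100 and 0.85 in litter 108. DESeq2 called it (adjusted p = 0.00238), as did edgeR without the filter on low counts (8.21e-06) and without hyperoxic replicate 4 (0.0163). By limma voom it was not called. The fit without the filter gave nearly the same difference with a smaller SE (0.16), as for other members. Over all left-out libraries the difference was 0.73 to 1.02 and the adjusted p 0.0163 to 0.596, the last without hyperoxic replicate 3.

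In the other populations Cd274 overlapped between the conditions. It was 63.1, 50.1, 274, 97.9 and 142 CPM in hyperoxic DC, 31.4, 16.5, 217, 48.2 and 191 CPM in Ly6Chi, and 265, 268, 453, 266 and 581 CPM in Ly6Clo. Replicates 3 and 5 were the 2 highest in each. The log2 differences were 0.37 ± 0.42 in DC, 1.43 ± 0.63 in Ly6Chi and 0.72 ± 0.21 in Ly6Clo (adjusted p = 0.807, 0.758 and 0.860). Without replicate 3 the value in DC changed sign (-0.25), and it was 0.89 in Ly6Chi and 0.61 in Ly6Clo.

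**Figure D3:**
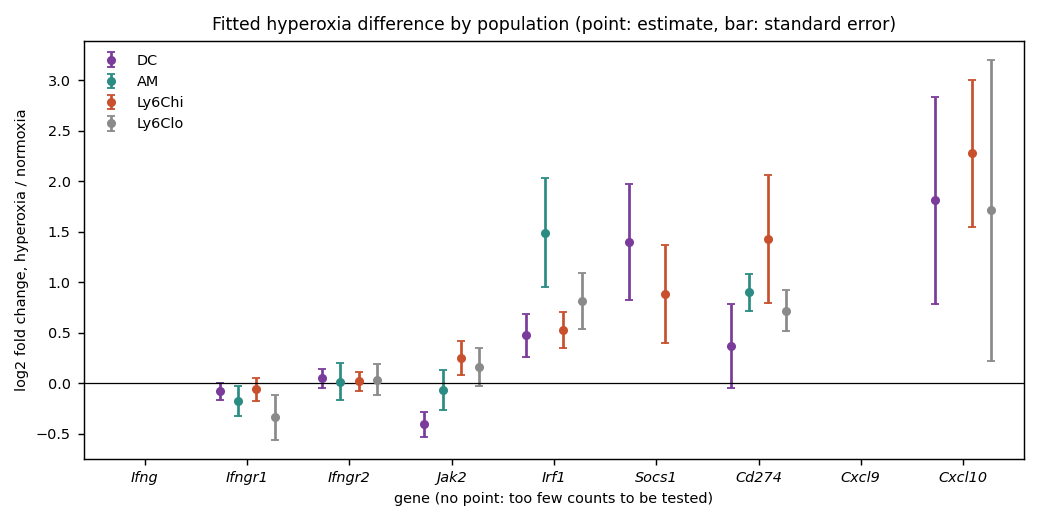
Fitted log2 fold change of hyperoxia over normoxia (vertical axis) for each member (horizontal axis) in each population (colour), with its standard error; no point means that counts were too few for a test. Values for Ifngr1, Ifngr2 and Jak2 lie between -0.41 and 0.25, and those for Irf1, Socs1, Cd274 and Cxcl10 lie above 0, up to 2.28, with wide errors and no adjusted p under 0.05.

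Cxcl10 was 32.1, 14.7, 455, 26.5 and 47.9 CPM in hyperoxic DC, 0, 3.66, 117, 0 and 11.6 CPM in AM, 3.93, 15.2, 399, 34.4 and 42.4 CPM in Ly6Chi, and 16.6, 21.5, 220, 4.47 and 8.46 CPM in Ly6Clo. One library in each population, replicate 3, lay far above the rest. The log2 differences were 1.81 ± 1.03 in DC, 2.28 ± 0.73 in Ly6Chi and 1.71 ± 1.49 in Ly6Clo (adjusted p = 0.635, 0.758 and 0.877). Without replicate 3 they were 0.54, 1.24 and -0.13, and AM had too few counts for a test.

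Cxcl9 was 1.13, 2.002, 217, 4.08 and 53.6 CPM in hyperoxic DC and 0, 2.44, 89.5, 0 and 7.34 CPM in AM. In Ly6Chi it was 0, 0, 148, 1.38 and 0 CPM, and in Ly6Clo 0, 0, 196, 0 and 19.2 CPM. Replicate 3 was the highest library in each population, and replicate 5 was next in DC, AM and Ly6Clo. The gene did not pass the filter for any of the 4 comparisons.

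A fit of all 43 libraries asked whether the hyperoxia difference itself varied between populations. Of 8 members tested 0 were called, as of 12529 genes (0%), and 617 genes (4.92%), no member among them, had an unadjusted p under 0.05 by edgeR's quasi-likelihood test. The smallest unadjusted p of a member was 0.0857, for Jak2. DESeq2 and limma voom called no member either. Without the filter on low counts, edgeR called Irf1, Cd274, Cxcl9 and Cxcl10 among 524 of 23846 genes.

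Split by litter, the inducible members showed a different picture in each. For Irf1, Socs1, Cd274, Cxcl9 and Cxcl10 over 4 populations, 20 differences in mean log2 CPM between hyperoxic and normoxic libraries of a litter can be formed. In litter 93, 4 of 20 were positive (median -0.25, range -3.56 to 0.53). In litter 108, 19 of 20 were positive (median 0.83, range -0.24 to 3.47). Taken singly against the normoxic mean of the litter, replicate 5 was higher in 19 of 20 (median 2.26) and replicate 4 in 13 of 20 (median 0.13), so the size of the difference in litter 108 lay mostly with replicate 5. In litter 100, with 1 hyperoxic library in each population, 20 of 20 were positive (median 3.13, range 0.94 to 8.27). The largest, Cxcl9 in Ly6Clo, set 196 CPM against 0, so its size depends on the prior count. Low counts enter litter 93 too, where Cxcl9 in Ly6Chi set 0 against 2.88 CPM. Over all genes passing the filter, the median difference lay between -0.12 and 0.015 in every litter and population. These values are not independent, since genes share a library and populations may share a pup, and the difference between litters was not tested.

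**Figure D4:**
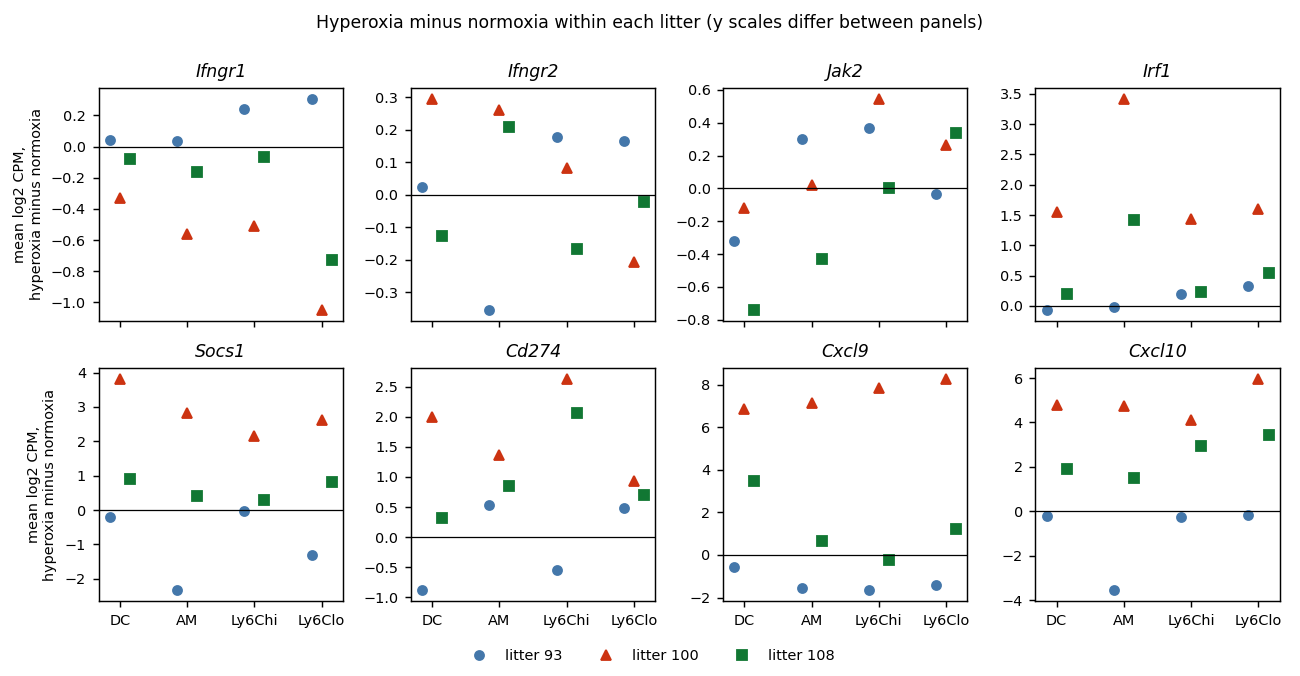
Mean log2 CPM of hyperoxic minus normoxic libraries within each litter (vertical axis; scales differ between panels) by population (horizontal axis) for 8 members. Litter 100 has the highest value in all 4 populations for Irf1, Socs1, Cd274, Cxcl9 and Cxcl10, between 0.94 and 8.27, and the lowest for Ifngr1, between -1.05 and -0.33.

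In litter 100 the hyperoxic library thus combined high targets with low Ifngr1. The same 4 libraries were also the shallowest hyperoxic library of their population, with 1309747 (DC), 551960 (AM), 1026528 (Ly6Chi) and 647844 (Ly6Clo) counts. They had the fewest genes detected of their population, normoxic libraries included, at 14963, 13306, 14121 and 13532. The part of depth in these values was not tested. Against 2 normoxic libraries of the same litter, Ifngr1 was lower by 0.33 (DC), 0.56 (AM), 0.51 (Ly6Chi) and 1.05 (Ly6Clo) on the log2 scale, and Ifngr2 differed by 0.30, 0.26, 0.08 and -0.21. In the same 4 libraries Cxcl10 was higher by 4.80, 4.72, 4.10 and 5.96. As a description over 43 libraries, deviations of log2 CPM from the group mean correlated at -0.55 between Ifngr1 and Cxcl10 and -0.61 between Ifngr1 and Socs1. Over the 39 libraries left without the 4 of litter 100, these were -0.21 and -0.32, so most of the relation rested on those libraries. The positive relation of Irf1 with Socs1 was 0.72 over 43 and 0.56 over 39 libraries, and that of Irf1 with Ifngr2 was 0.57 and 0.70. The points share depth and, within a population, the sort.

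**Figure D5:**
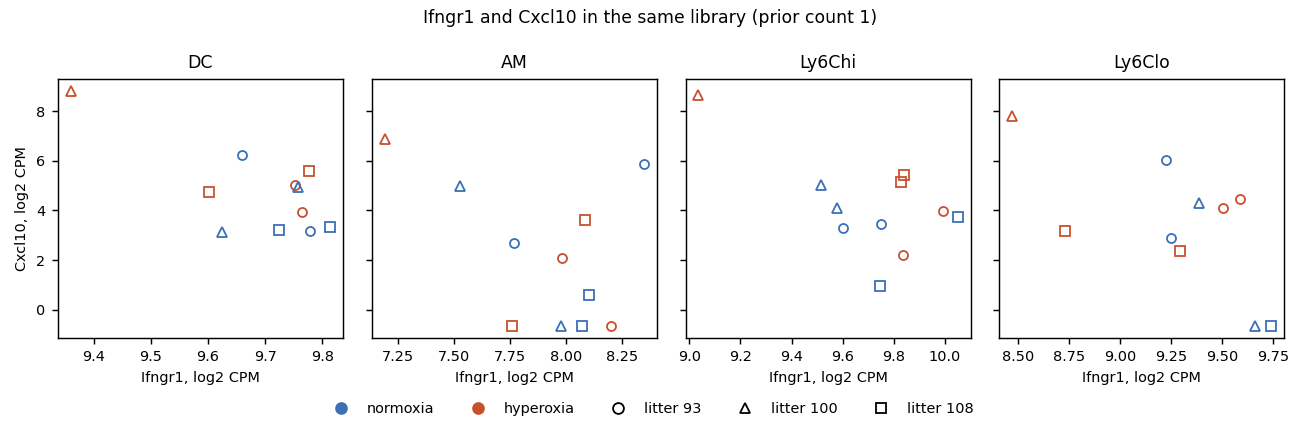
Ifngr1 (horizontal axis) against Cxcl10 (vertical axis) in each library, both as log2 CPM, by population; colour is oxygen and symbol is litter. The hyperoxic library of litter 100 lies alone at the upper left of each panel, and the other libraries form no slope that all 4 panels share.

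The wider pathway was described with lists of signalling partners, target genes, inducers and chemokine partners. Of the 22 interferon gamma target genes in the table, 0 were called under hyperoxia in any population. Over all genes tested, 0.110% were called in AM and 0% in DC, Ly6Chi and Ly6Clo. Of those tested, 17 of 18 had a positive difference in DC (median 0.65 on the log2 scale, against 0.00 over all genes tested), 11 of 12 in AM (1.22 against -0.01), 15 of 16 in Ly6Chi (0.46 against -0.01) and 11 of 12 in Ly6Clo (0.79 against -0.01). Without the hyperoxic library of litter 100, a setting chosen after seeing the data, the medians were 0.11 in DC (13 of 18 positive), 0.90 in AM (11 of 13), 0.14 in Ly6Chi (11 of 16) and 0.28 in Ly6Clo (9 of 12). By litter, the median over the target genes with a count was 2.01 to 3.10 in litter 100, 0.14 to 1.35 in litter 108 and -0.16 to 0.11 in litter 93 across the 4 populations.

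Among these lists the smallest p-values were in AM. Irgm2 and Igtp, immunity-related GTPases, had log2 differences of 1.78 ± 0.41 and 1.89 ± 0.55 (adjusted p = 0.160 and 0.253), and Tap1, the peptide transporter of MHC class I, 1.22 ± 0.29 (adjusted p = 0.161). In DC they were Il27, a cytokine subunit (1.28 ± 0.35), Stat4, the transcription factor downstream of interleukin 12 (-1.25 ± 0.39), and the immunoproteasome subunit Psmb10 (0.36 ± 0.14), with adjusted p = 0.435 to 0.518. In Ly6Chi they were the costimulatory ligand Cd80 (-0.67 ± 0.22), the immunoproteasome subunit Psmb8 (0.44 ± 0.16) and Il27 (0.92 ± 0.36), each with adjusted p = 0.758. In Ly6Clo they included the guanylate-binding protein Gbp3 (1.55 ± 0.60) and Irgm2 (1.25 ± 0.51), each with adjusted p = 0.860. None passed the threshold.

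In the other lists no gene was called either, beside the same shares of all genes tested. Of the 12 receptor-proximal signalling genes, 0 were called under hyperoxia, with medians of -0.08 in DC, 0.17 in AM, -0.03 in Ly6Chi and 0.03 in Ly6Clo. Type I interferon receptor and signalling genes had medians between -0.04 and 0.10, inducers of Ifng between -0.34 and 0.04, and the partners of Cxcl9, Cxcl10 and Cd274 between -0.45 and 0.11, with 0 called in each.

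Between normoxic populations, genes of these lists were called in both directions, and the lists themselves were not tested. Of 18 target genes tested, 17 were called higher in DC than in AM and 0 lower (27.5% and 22.4% of all genes tested), with a median log2 difference of 2.16 against 0.05 over all genes. In AM against Ly6Chi, 14 were lower and 0 higher (28.3% and 24.0% of all genes), with a median of -1.82 against -0.05. Between DC and Ly6Chi, 6 were higher and 6 lower in DC (14.2% and 14.4%), with a median of 0.08 against -0.01. DC exceeded Ly6Clo in 12 and was lower in 2 (11.7% and 12.7%), with a median of 1.16 against 0.02. AM was lower than Ly6Clo in 10 and higher in 0 (14.2% and 7.28%), with a median of -0.94 against -0.03. Ly6Chi exceeded Ly6Clo in 10 and was lower in 0 (15.7% and 15%), with a median of 0.96 against 0.03. Ciita, the activator of MHC class II genes, was the extreme case of DC, at 223 ± 46.2 CPM against 1.09 ± 1.31 in AM, 3.66 ± 2.65 in Ly6Chi and 3.67 ± 3.12 in Ly6Clo. Igtp was at 190 ± 38.9 CPM in Ly6Chi and 11.8 ± 6.96 CPM in AM (log2 difference of AM minus Ly6Chi -3.92 ± 0.29, adjusted p = 3.3e-11).

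Of the 12 receptor-proximal genes, 10 were higher and 1 lower in DC than in AM (27.5% and 22.4% of all genes tested), and 11 were lower in AM than in Ly6Chi (28.3%). Ly6Chi exceeded Ly6Clo for Irf9 (log2 difference 1.41 ± 0.14) and its partner Stat2 (1.26 ± 0.17). Irf8, a transcription factor of dendritic cells and monocytes, was highest in DC (906 ± 151 CPM) and lowest in AM (114 ± 25.3 CPM; 2.99 ± 0.12, adjusted p = 1.15e-15). Irf7, the amplifier of type I interferon, had the widest range of its list, from 571 ± 126 CPM in Ly6Chi to 8.52 ± 2.50 CPM in AM (AM minus Ly6Chi -6.11 ± 0.30, adjusted p = 8.46e-14).

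The upstream and downstream partners were also unevenly spread. Il12b, the shared subunit of interleukins 12 and 23, was at 74.3 ± 24.4 CPM in DC, 5.23 ± 11.7 CPM in Ly6Clo, 0.101 ± 0.247 CPM in Ly6Chi and 0 in all 6 AM libraries. Il15, which sustains natural killer cells, was at 101 ± 11.9 CPM in Ly6Chi and 32.6 ± 8.11 CPM in Ly6Clo (1.64 ± 0.25, adjusted p = 1.24e-05). Cxcr3, the receptor of CXCL9 and CXCL10, was at 196 ± 46.6 CPM in DC and at most 14.4 ± 3.98 CPM elsewhere, and Dpp4, a peptidase that trims these chemokines, at 415 ± 57.4 CPM in DC and at most 32.3 ± 21.2 CPM elsewhere. Pdcd1lg2, which encodes PD-L2, resembled Cd274 in being low in Ly6Chi (0.440 ± 0.483 CPM) and higher in Ly6Clo (27.7 ± 6.28 CPM), AM (26.3 ± 7.52 CPM) and DC (15.4 ± 4.56 CPM).

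The genes most like each member were sought among 12242 others by Pearson correlation over the 43 libraries, which mix population, oxygen and litter and share depth. For Ifngr1 these were Pld4 (r = 0.96), Cfp and Coro1a (0.96 and 0.95), and for Ifngr2 they included Sirt7 and Gsdmd (both 0.93). Jak2 was most like Adam8 and Rab43 (0.89 and 0.88) and Klrk1 (0.88), and Cd274 most like Ahnak2 (0.92), Il1rn and Il1a (both 0.91). Irf1 was most like Igtp (0.92), Gbp3 (0.90) and Irgm1 (0.89), all on the target list, and Socs1 like Tgtp2 (0.84), Calhm6 (0.83) and Gbp3 (0.83). Cxcl9 was most like Serpina3f (0.75), Ccdc88b and Gbp2 (both 0.71), and Cxcl10 like 1110038F14Rik and Gbp4 (both 0.74) and Gbp2b (0.69).

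With the group means removed, so that only differences between libraries of a group count, the leading genes changed. They were Gbp2 for Irf1 (0.81) and Cxcl9 (0.80), Csf2rb2 for Socs1 (0.86), Gbp4 for Cxcl10 (0.68), Ttc39b for Cd274 (0.84) and Lpcat2 for Ifngr2 (0.78). The hyperoxic libraries of litter 100 weigh in all of these values.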

How the data were processed

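RNA of sorted cells was amplified with the SMART-Seq v4 kit and made into Nextera XT libraries, per the labels' protocols, so there are no molecular identifiers. The deposited table holds raw counts per Ensembl gene. TopHat, HTSeq 0.4.1, FastQC, Picard and SAMtools with build NCBIM37 are named in the submitters' processing notes, and their roles and the annotation are not given in the sources used here. Symbols (32919 of 37991 genes matched) and exonic lengths came from GENCODE M21 on GRCm38, and promoter windows from RefSeq on GRCm38.p6. All 9 members matched, and each had a promoter window. No gene reached 2 counts per exonic base (highest 1.73, highest of a member 0.724). Whether counts were limited per base, as by removal of duplicate reads, is not stated in the sources used here. If they were, differences in the most abundant transcripts may be compressed.

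Counts were fitted in R 4.3.3 with edgeR 4.0.16 (filterByExpr, count at least 10 and summed count at least 15; TMM scaling; robust quasi-likelihood F tests, litter as an additive term), adjusted by Benjamini and Hochberg over all genes tested, with calls below an adjusted p of 0.05. Fold changes used a prior count of 0.125 and log2 CPM a prior count of 1. Alternatives were DESeq2 1.42.0, limma voom 3.58.1, RLE scaling, no filter, no litter term, leaving out each litter, each library or the libraries under 1000000 counts, and counts corrected for 2 reads per exonic base. Plots were made in matplotlib 3.10.9 under Python 3.11.15. The code was tested on simulated data.

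The members and lists were chosen with earlier results of these data known. Named were the 9 members, under hyperoxia the 3 list genes of smallest p in each population, between normoxic populations up to 3 called genes of largest change in each list, and the 3 genes most correlated with each member. Hyperoxic libraries were compared with the normoxic libraries measured in the same way. Some genes that these rules name are not reported here.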

Additional observations from a re-analysis of the deposited data

Results flagged for a closer look

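In 67 groups of a member and a population by oxygen condition, the highest or lowest library was compared with its nearest neighbour by Dixon's ratio. For normally distributed values its cut-offs pick out about 1 group in 20. The CPM values were not transformed, and some groups were mostly 0, such as Cxcl9 in normoxic AM (counts in 2 of 6 libraries). That rate therefore cannot be taken as the chance rate here. Dixon's ratio picked out 17 groups, of which 13 were hyperoxic, and all 13 were the library of litter 100.

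In hyperoxic Ly6Chi that library was highest for Ifng (24.8 CPM, next 1.84), Irf1 (550, next 346), Cxcl9 (148, next 1.38) and Cxcl10 (399, next 42.4), and lowest for Ifngr1 (524, next 909). In hyperoxic DC it was highest for Socs1 (146, next 31.2), Cxcl9 (217, next 53.6) and Cxcl10 (455, next 47.9). In hyperoxic AM it was highest for Cxcl9 (89.5, next 7.34) and Cxcl10 (117, next 11.6). In hyperoxic Ly6Clo it was highest for Jak2 (152, next 97.0), Cxcl9 (196, next 19.2) and Cxcl10 (220, next 21.5). These genes share libraries, and the 4 libraries may share a pup, so the 13 are not separate events.

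The other 4 were normoxic. Jak2 was low in DC replicate 3 of litter 100 (247 CPM, next 307), Socs1 was high in Ly6Clo replicate 2 of litter 93 (12.2, next 4.96), Cxcl9 was high in AM replicate 1 of litter 93 (26.5, next 2.55), and Cxcl10 was high in DC replicate 2 of litter 93 (74.1, next 29.8).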

How the results depend on the processing

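Litter was the replicate block in every fit, because each litter holds both oxygen conditions in every population; replicate numbers followed accession order and were not used to pair libraries. Without the block the counts of members called did not move (0 in each hyperoxia comparison, and 6, 3, 4, 6, 3 and 3 in the normoxic pairs), and 5 uncalled log2 differences changed sign: hyperoxia minus normoxia for Ifngr1 in Ly6Chi (0.005) and Jak2 in Ly6Clo (-0.020), and Cxcl10 for AM minus Ly6Chi (0.311), AM minus Ly6Clo (-0.140) and Ly6Chi minus Ly6Clo (-0.451).

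Without the filter on low counts, edgeR called 5 members under hyperoxia in DC, 2 in AM, 4 in Ly6Chi and 4 in Ly6Clo. For the difference between populations it called 4. In the same order, all genes called were 369 of 21297, 325 of 19708, 235 of 20482, 173 of 20149 and 524 of 23846. The cause was not tested. DESeq2 called 1 in AM. Leaving out 1 library gave 0 to 1 members called in AM (1 without hyperoxic replicate 4) and 0 in the other hyperoxia comparisons. DC minus Ly6Clo had 2 members called without litter 93 and 2 without litter 108, where fewer libraries were fitted.

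All other changes of sign were in uncalled differences. Under hyperoxia without litter 100, they were Ifngr2 (-0.037) and Cd274 (-0.234) in DC, Ifngr2 in AM (-0.057), Ifngr1 (0.069) and Ifngr2 (-0.011) in Ly6Chi, and Cxcl10 in Ly6Clo (-0.134, and -0.131 without libraries under 1000000 counts). Without litter 108 they were Ifngr2 (-0.115) and Jak2 (0.175) in AM, and without litter 93 Ifngr2 in Ly6Chi (-0.065) and Ly6Clo (-0.085). In normoxia, Ifngr1 for DC minus Ly6Chi was 0.009 with RLE scaling, 0.008 with DESeq2, 0.087 without litter 108 and 0.006 without the small libraries. Cxcl10 for AM minus Ly6Chi was 0.188 with limma voom, 0.312 without litter 100, 0.429 without litter 108 and 0.100 without the small libraries. It was -0.332 for AM minus Ly6Clo without litter 100, and for Ly6Chi minus Ly6Clo -0.643 without litter 100 and -0.222 without litter 108.

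Over single left-out libraries, differences that changed sign ranged as follows. Under hyperoxia these were Ifngr2 from -0.043 to 0.093 in DC, -0.114 to 0.154 in AM, -0.029 to 0.069 in Ly6Chi and -0.031 to 0.101 in Ly6Clo, Cd274 from -0.247 to 0.594 in DC, Jak2 from -0.226 to 0.009 in AM, Ifngr1 from -0.130 to 0.060 in Ly6Chi and Cxcl10 from -0.131 to 3.422 in Ly6Clo. In normoxia these were Ifngr1 from -0.030 to 0.059 (DC minus Ly6Chi), and Cxcl10 from -0.864 to 0.283 (AM minus Ly6Chi), -0.780 to 1.347 (AM minus Ly6Clo) and -0.176 to 1.426 (Ly6Chi minus Ly6Clo).

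Depth limits Ifng and Cxcl9, Socs1 in AM and Ly6Clo, and Cxcl10 in AM, which were too low to be tested under hyperoxia. With 1 hyperoxic library of litter 100 in each population, the hyperoxic arm of that litter has no spread of its own.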
